A study of Mus musculus with 4 samples.

Results

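Acute phase and antibacterial secreted proteins are represented here by 6 genes, Saa3, Hp, Lbp, Lcn2, Lyz2 and Lyz1, of the 24473 genes with deposited FPKM values. The genes were chosen by name with earlier results of the SIX2 knockdown against control comparison known, that is, by the counts of that comparison, so their differences are given as a description. The cells were BV-2, an established line of mouse microglia, the resident macrophages of the brain. There were 2 libraries of cells with a SIX2 knockdown (titles sh s1 and sh s2) and 2 control libraries (titles sh c1 and sh c2, genotype WT), all from cells given lipopolysaccharide (LPS), a component of bacterial outer membranes, at 100 ng/mL for 24 h. The series design names the construct shSIX2. Both groups carry the sh prefix in their titles, and the labels do not say which construct, if any, the control cells held. The labels do not say whether the cells of a group were 1 clone or a pool, or whether replicates were separate cultures, so a p-value here reflects no more than library-to-library spread, possibly of technical origin.

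In the acute phase response, cytokines and bacterial products raise the output of a set of secreted proteins, mostly from the liver and in part from macrophages at the site. Serum amyloid A proteins bind lipids and act on leukocytes, haptoglobin captures free haemoglobin, and LPS-binding protein hands LPS to CD14 and so to the TLR4 receptor. Lipocalin 2 withholds iron by binding the siderophores of bacteria, and lysozymes cut the peptidoglycan of bacterial cell walls. In mice SAA3 is the form made by macrophages and other cells outside the liver, Lyz2 is the lysozyme gene of myeloid cells, and Lyz1 is known mainly from the Paneth cells of the gut.

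The knockdown libraries held 74.7 and 64.3 M counts and the control libraries 75.7 and 61.0 M. Low counts peaked at multiples of 4, so 1 sequenced fragment was taken as about 4 counts, and 12 counts (3 fragments) as the limit that a count of 0 allows. Six2 itself had a count of 0 in all 4 libraries, which allows at most 0.194 CPM (a count expressed relative to its library's size), so the knockdown could not be checked on its target. Floors cover counting error only. Of 14 microglia and macrophage markers, 13 lay above 12 counts in each knockdown library and 14 and 13 in the control libraries. P2ry12, a marker of resting microglia, had 0 counts in both knockdown libraries and 24 and 4 in the control libraries, and Cx3cr1 had 19 and 54 counts in knockdown and 30 and 27 in control libraries. Knockdown replicate 2 stood apart in that it held all 6 listed hepatocyte markers, led by the albumin gene Alb with 1212 counts, against 0 counts of Alb in the other 3 libraries. Traces of neutrophil markers were uneven as well, and their values stand beside the results they touch.

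The levels of the 6 genes were compared on the length-corrected FPKM scale, with Saa3 the most abundant in every library. Saa3 had 255 and 275 FPKM in the knockdown libraries and 503 and 610 FPKM in the control libraries, which made it the 216th and 202nd gene by FPKM in knockdown and the 101st and 79th in control libraries. Lyz2 came next, with 101 and 123 FPKM in knockdown and 221 and 238 FPKM in control libraries. Lcn2 followed at 31.9 and 32.7 FPKM in knockdown and 44.9 and 55.4 FPKM in control libraries. For each of these 3 genes both knockdown libraries lay below both control libraries. Hp lay at 10.7 and 10.1 FPKM in knockdown and 24.5 and 24.7 FPKM in control libraries. Lbp had 1.99 and 1.75 FPKM in knockdown and 2.55 and 2.63 FPKM in control libraries. Lyz1 was last, with at most 0.187 FPKM in any library. Within each group no 2 neighbours in this order overlapped. The 6 genes together took 0.101% and 0.110% of all counts in the knockdown libraries and 0.197% and 0.233% in the control libraries, and Saa3 alone made up 72.4% to 75.7% of these.

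Promoter stretches are shown for the 4 genes with an entry in the RefSeq promoter table (GRCm38.p6), because Saa3, Lcn2 and Lyz2 were all lower in knockdown libraries and because Lyz1 and Lyz2 are close copies with very different levels. Each stretch ends before the first start given by RefSeq or by the deposited gene models. The Lcn2 stretch overlaps an exon of a longer Lcn2 transcript in GENCODE M21, which starts upstream of both. Capitals mark matches to the C/EBP motif TTNNGNAA on either strand.
Saa3, chr7:46715701-46715926, minus strand: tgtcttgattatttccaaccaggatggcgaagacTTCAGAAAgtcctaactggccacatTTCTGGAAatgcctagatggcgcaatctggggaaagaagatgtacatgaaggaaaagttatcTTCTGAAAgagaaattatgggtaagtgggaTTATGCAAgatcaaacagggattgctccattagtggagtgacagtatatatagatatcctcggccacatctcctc
Lcn2, chr2:32387798-32387989, minus strand: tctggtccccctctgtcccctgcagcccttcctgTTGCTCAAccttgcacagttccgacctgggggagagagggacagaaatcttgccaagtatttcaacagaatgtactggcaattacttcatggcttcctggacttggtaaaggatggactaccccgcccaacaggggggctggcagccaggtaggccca
Lyz2, chr10:117282322-117282522, minus strand: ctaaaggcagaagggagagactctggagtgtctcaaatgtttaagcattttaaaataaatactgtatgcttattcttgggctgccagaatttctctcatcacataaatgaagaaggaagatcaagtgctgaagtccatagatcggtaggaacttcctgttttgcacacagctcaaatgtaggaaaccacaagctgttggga
Lyz1, chr10:117292869-117293118, minus strand: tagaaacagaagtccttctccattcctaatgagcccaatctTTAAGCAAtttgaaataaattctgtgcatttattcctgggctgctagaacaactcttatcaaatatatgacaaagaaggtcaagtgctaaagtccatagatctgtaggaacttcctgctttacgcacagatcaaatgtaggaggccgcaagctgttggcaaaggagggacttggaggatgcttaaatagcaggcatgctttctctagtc

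C/EBP factors and NF-kB are the textbook activators of acute phase genes. The full RefSeq window runs from 250 bases before to 50 bases after the start. The Saa3 window held 4 matches to the C/EBP motif, from -216 to -92 relative to the RefSeq start. At least 1 match stood in 40.7% of all 32851 windows and at least 4 in 0.852%. Lcn2, Lyz2 and Lyz1 held 1 match each, that of Lyz2 (-55 to -48) lying outside the printed stretch. The NF-kB decamer consensus (in 8.46% of windows) and the STAT motif TTCNNNGAA (in 8.30%) had no match in the 4 windows. A match or its lack is a description of these letters only.

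Of the acute phase genes proper, Saa3 and Hp were each lower in both knockdown libraries than in both control libraries, with control means 2.05 and 2.31 times the knockdown means, and Lbp was lower by less, at 1.35 times. Values here are CPM after TMM scaling. Each log2 fold change (knockdown over control) carries an SE, taken as its size divided by the square root of the edgeR F statistic. Saa3 (ENSMUSG00000040026, chromosome 7, 46711998 to 46715700, minus strand, GRCm38) had 748 and 808 CPM in the knockdown libraries and 1450 and 1740 CPM in the control libraries. The groups did not overlap, and the lowest control library was 1.79-fold above the highest knockdown library. The fitted log2 fold change was -1.04 ± 0.10. Hp, the haptoglobin gene (ENSMUSG00000031722, chromosome 8, 109575128 to 109579172, minus strand), had 19.3 and 18.3 CPM in knockdown and 43.6 and 43.4 CPM in control libraries. Its replicates were the closest of the 6 genes in the control group, differing 1.00-fold, and its log2 fold change of -1.21 ± 0.11 was the largest of the 5 genes tested. Lbp, the gene for LPS-binding protein (ENSMUSG00000016024, chromosome 2, 158306493 to 158320956, plus strand), had 10.8 and 9.57 CPM in knockdown and 13.6 and 13.9 CPM in control libraries. These groups did not overlap either, but the gap was narrow (1.26-fold between the nearest libraries), and the log2 fold change was -0.43 ± 0.15. In bulk samples fewer cells making a transcript and less transcript per cell cannot be told apart.

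Of the antibacterial genes, Lyz2 resembled Saa3 and Hp in its fold, Lcn2 lay between them and Lbp, and Lyz1 was at the limit of detection. Lcn2, the lipocalin 2 gene (ENSMUSG00000026822, chromosome 2, 32384633 to 32387797, minus strand), had 94.1 and 97.0 CPM in knockdown and 130 and 159 CPM in control libraries. The knockdown libraries were alike and the control libraries were spread 1.22-fold, with a gap of 1.34-fold between the groups. Its log2 fold change was -0.60 ± 0.11. Lyz2 (ENSMUSG00000069516, chromosome 10, 117277331 to 117282321, minus strand) had 150 and 182 CPM in knockdown and 322 and 343 CPM in control libraries, a log2 fold change of -1.001 ± 0.11. Here the knockdown libraries were the more spread pair (1.22-fold), and the groups were 1.76-fold apart at their nearest. Lyz1 (ENSMUSG00000069515, chromosome 10, 117287797 to 117292868, minus strand) had 6 and 0 counts in knockdown and 4 and 16 counts in control libraries. Only control replicate 2 exceeded 12 counts, the groups overlapped, and the gene was too low to be tested, so no fold is given.

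Lyz1 and Lyz2 lie 5475 bases apart on the same strand, and their transcripts were identical at 96.0% of 1262 aligned bases in GENCODE M21. Reads of such copies can be assigned to either, and how the authors' counting placed them is not stated. No stretch of 150 bases, the read length in the labels, was identical between the transcripts (0 of 1114 in Lyz1), whereas 16.1% of its stretches of 50 bases were. Lyz1 made up 0% to 0.0754% of the lysozyme counts of a library, and summing both genes gave a log2 fold change of -1.002. In the 250 bases before their RefSeq starts the genes were identical at 85.4% of 240 aligned bases.

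**Figure D1:**
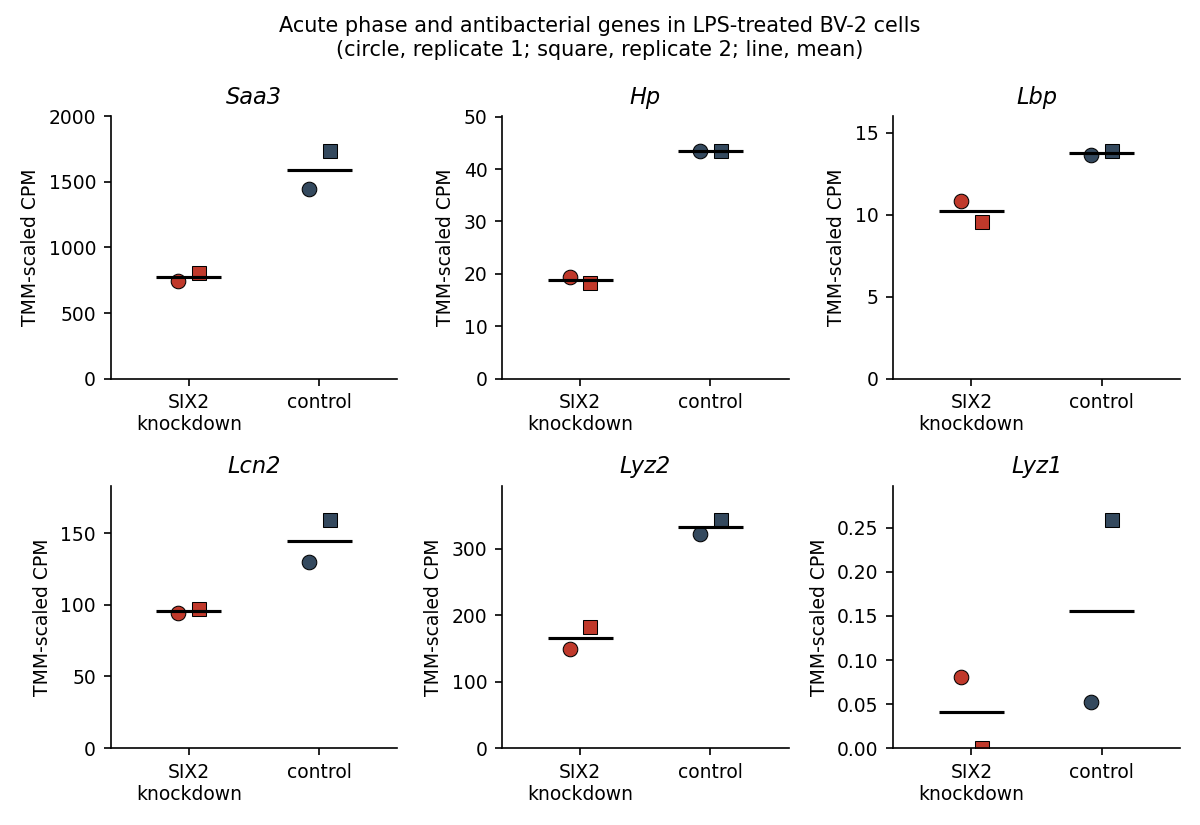
TMM-scaled CPM of the 6 genes in each library, SIX2 knockdown left and control right, with the mean as a line. For Saa3, Hp, Lbp, Lcn2 and Lyz2 both knockdown libraries lie below both control libraries, while Lyz1 stays under 0.26 CPM with overlapping groups.

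Of the 15733 genes with enough counts to be tested by edgeR, 0.547% were called lower and 0.407% higher in knockdown at a Benjamini-Hochberg adjusted p under 0.05 (0.953% in all). Of the 6 genes 5 were tested, and 3 of these (Saa3, Hp and Lyz2) were called lower. The groups did not overlap for 5 of the 5, with knockdown lower, as for 23.8% of all tested genes (47.6% in either direction), and 3 of the 5 had a log2 fold change of -1 or below, as 7.86% of all did. Because the comparison chose the genes, nothing is read from these counts. The calls of single genes turned on the libraries present: leaving out knockdown replicate 1 ended the call of Saa3 (log2 fold change -0.98), leaving out knockdown replicate 2 those of Saa3 (-1.09) and Hp (-1.17), leaving out control replicate 1 that of Lyz2 (-1.05), and leaving out control replicate 2 those of Hp (-1.21) and Lyz2 (-0.95). All 5 fold changes stayed below 0 in those fits, which share libraries with the full one. With no robust option and with limma on log2(FPKM + 1) or log2(FPKM + 0.1) 0 of the 5 were called, although all 5 had an unadjusted p under 0.05 there. Lcn2 was called as well by DESeq2, and by edgeR with no filter on low counts or with at least 40 counts in all libraries, which made 4 called in each. Over all genes these fits called 801 of 15733, 297 of 22759 and 187 of 11928. Among the 9982 tested genes averaging 5 CPM or more, 31 had a lower fold change than Hp, 52 than Saa3 and 58 than Lyz2, against 241 for Lcn2 and 476 for Lbp.

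**Figure D2:**
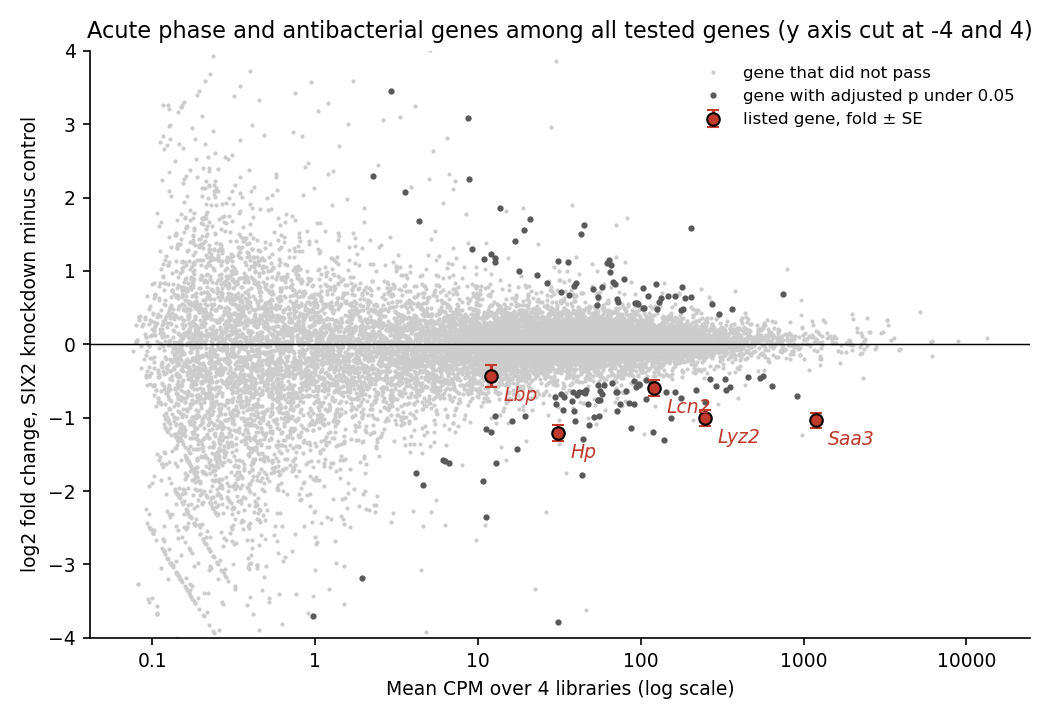
Log2 fold change (SIX2 knockdown minus control) against mean CPM on a log scale for the 15733 tested genes, with genes past an adjusted p of 0.05 in dark grey and the listed genes in red with their SE; the y axis is cut, so genes with the most extreme folds are not drawn. Saa3, at the right, lies at -1.04, among abundant genes that cluster near 0, while Lbp at -0.43 lies within the grey cloud.

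Markers of other cell types were present as traces. The 10 neutrophil markers summed to 6.91 and 0.853 CPM in the knockdown libraries and 18.7 and 12 CPM in the control libraries, so they were lower in knockdown, as the listed genes were. They differed 8.11-fold between the knockdown replicates, whereas Hp differed 1.06-fold, Lcn2 1.03-fold and Saa3 1.08-fold there, and Lyz2 was the higher in replicate 2, which had the fewer neutrophil counts. In each library that held them, 8 of the 10 markers exceeded 12 counts; in knockdown replicate 2 only S100a8 did, with 50 counts, and Ngp, S100a9, Ltf, Mpo and Camp were at 0. The neutrophil surface marker Ly6g had 4 and 0 counts in knockdown and 4 and 0 in control libraries. The 6 hepatocyte markers summed to 2.48 and 28.2 CPM in knockdown and 5.60 and 5.74 CPM in control libraries. Outside knockdown replicate 2 that sum was Ttr alone, the other 5 being at 0. Hp and Lbp, which the liver also makes, were no higher in the replicate with hepatocyte markers: Hp had 18.3 CPM in it and 19.3 CPM in the other knockdown library, and Lbp 9.57 and 10.8 CPM. The 5 epithelial markers summed to 0.054 and 0.253 CPM in knockdown and 0 CPM in both control libraries. The knockdown sums were 4 and 16 counts, and a count of 0 allows up to 12, so no direction is read. Astrocyte, neuron and fibroblast markers were lower in both knockdown libraries. The 5 fibroblast markers summed to 0.338 and 0.063 CPM in knockdown and 0.551 and 0.582 CPM in control libraries, with at most 1 marker above 12 counts in any library. The 5 astrocyte markers summed to 2.44 and 1.88 CPM in knockdown and 4.54 and 4.79 CPM in control libraries. The 5 neuron markers summed to 3.19 and 0 CPM in knockdown and 6.14 and 5.63 CPM in control libraries, all 5 being at 0 in knockdown replicate 2. The part of these traces in the differences was not tested.

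**Figure D3:**
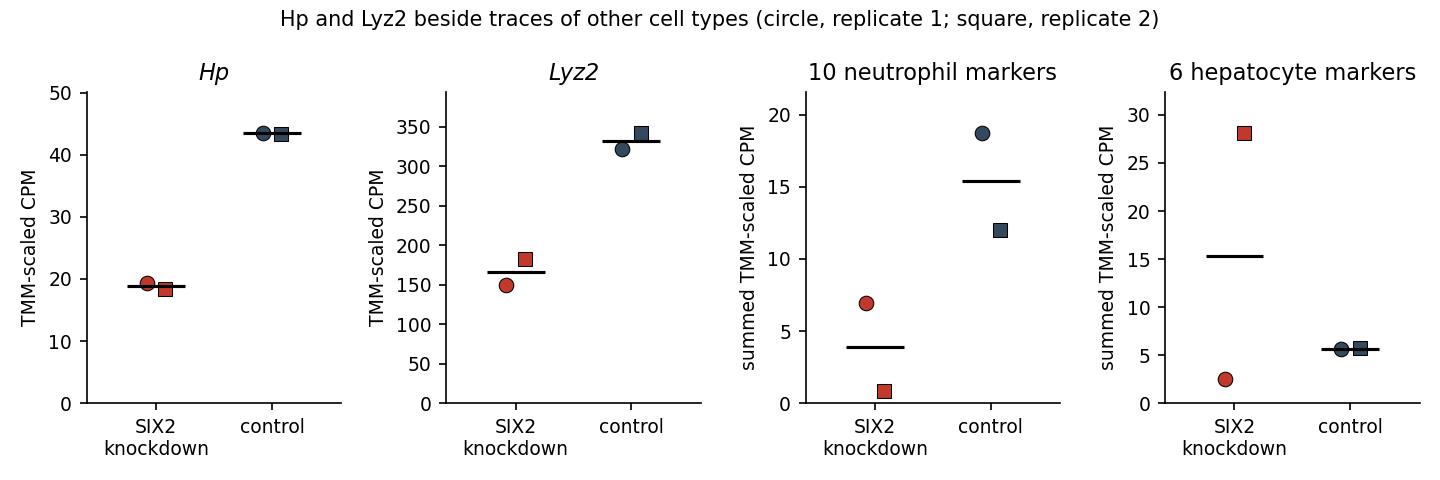
TMM-scaled CPM of Hp and Lyz2 beside the summed CPM of 10 neutrophil and 6 hepatocyte markers in each library, SIX2 knockdown left and control right, with the mean as a line. The hepatocyte sum reaches 28.2 CPM in knockdown replicate 2 alone, and the neutrophil sum is lowest there at 0.853 CPM, while Hp and Lyz2 separate the groups.

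Other acute phase genes were mostly silent in these cells. Of 33 listed, 9 were expressed enough to be tested, and 0 were called by edgeR in either direction (at an unadjusted p under 0.05, 1 was higher and 1 lower). DESeq2 called 1 higher and 1 lower, Mt2 and Cp, and limma-voom 0. Without knockdown replicate 1, which leaves the library with hepatocyte transcripts alone in its group, edgeR called Serpina1b, a liver antitrypsin gene with 0 and 165 counts in knockdown and 0 counts in both control libraries. The median log2 fold change was -0.08, against -0.01 over all tested genes. The most abundant were the metallothionein genes, which encode metal-binding proteins induced in the acute phase. Mt1 had 581 and 537 CPM in knockdown and 518 and 467 CPM in control libraries (log2 fold change 0.18 ± 0.08, adjusted p = 0.381 by edgeR). Mt2 had 218 and 257 CPM in knockdown and 174 and 192 CPM in control libraries (0.37 ± 0.10, adjusted p = 0.176 by edgeR). For both genes the groups did not overlap, with knockdown higher, and neither passed. Cp, the gene of the copper-carrying ferroxidase ceruloplasmin, had 12.9 and 14.0 CPM in knockdown and 20.1 and 23.4 CPM in control libraries (log2 fold change -0.69 ± 0.14, adjusted p = 0.0969). The liver-type serum amyloid genes Saa1, Saa2 and Saa4 did not exceed 12 counts in any library.

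A list of 32 other antibacterial genes held those of secreted and granule proteins and also of enzymes and a transporter. Of these 32, 18 were tested by edgeR, 2 fell and 0 rose, and 16 did not pass. Over all tested genes 0.547% were called lower and 0.407% higher. DESeq2 called 5 lower, adding Mpeg1, Rnase4 and S100a8, and limma-voom 2. Acod1 and Nos2, which fell by edgeR, encode enzymes of activated macrophages that make antimicrobial small molecules. Acod1, whose product makes itaconate, had 179 and 185 CPM in knockdown and 330 and 300 CPM in control libraries (log2 fold change -0.79 ± 0.08, adjusted p = 0.0152 by edgeR). Nos2, the inducible nitric oxide synthase, had 27.7 and 23.4 CPM in knockdown and 69.0 and 56.0 CPM in control libraries (-1.29 ± 0.14, adjusted p = 0.0159 by edgeR). Without knockdown replicate 1 the neutrophil granule genes Ngp and S100a9, both at 0 in the knockdown library left, were called lower too. The calls of Acod1 and Nos2 ended without knockdown replicate 2 (adjusted p = 0.0829 for Acod1 and 0.0985 for Nos2) and without control replicate 1 (0.0502 and 0.0599), and for Acod1 also without knockdown replicate 1 (0.0509). All 18 fitted fold changes were below 0, as were those of 8034 of all 15733 tested genes. The median of the 18 was -0.77, against -0.01 over all tested genes. The list held 6 neutrophil markers with a median of -1.89 and 12 other genes with a median of -0.50, and 5 of the 18 had a mean under 1 CPM, a range in which the median over all tested genes was -0.26. The folds of the markers Camp, Ngp, Ltf, S100a9 and Mpo, all at 0 in knockdown replicate 2, carried an SE of 1.61 to 2.14. Mpeg1, a pore-forming macrophage protein, had 51.3 and 64.3 CPM in knockdown and 79.9 and 85.9 CPM in control libraries (adjusted p = 0.133). Slpi, a secreted protease inhibitor, had 39.1 and 43.0 CPM in knockdown and 49.4 and 52.4 CPM in control libraries (adjusted p = 0.237). The groups did not overlap for either gene, and neither passed by edgeR, while DESeq2 called Mpeg1. Ctss, the cathepsin S gene, with the highest FPKM of those that did not pass, had 301 and 357 CPM in knockdown and 316 and 348 CPM in control libraries, with overlapping groups. Slc11a1, the phagosomal metal transporter NRAMP1, had 197 and 195 CPM in knockdown and 214 and 220 CPM in control libraries (adjusted p = 0.389).

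Of 21 genes for receptors and partners of the secreted proteins 18 were tested and edgeR called 0 (3 higher and 5 lower reached an unadjusted p under 0.05), while DESeq2 called 1 higher (Lrp1) and 2 lower (Tlr2 and Itgb2). The median log2 fold change was -0.16. Lrp1, a scavenger receptor that clears haemopexin bound to haem, had 280 and 257 CPM in knockdown and 202 and 197 CPM in control libraries (0.43 ± 0.07, adjusted p = 0.0656 by edgeR). Hmox1, the haem-degrading enzyme that acts after haptoglobin-bound haemoglobin is taken up, had 231 and 217 CPM in knockdown and 227 and 204 CPM in control libraries (adjusted p = 0.828). Tlr2, a receptor for bacterial lipoproteins, had 198 and 205 CPM in knockdown and 237 and 241 CPM in control libraries (adjusted p = 0.186). The groups overlapped for Hmox1 and not for Tlr2, which was lower in knockdown. Along the route from LPS-binding protein, Cd14 had 150 and 156 CPM in knockdown and 161 and 163 CPM in control libraries. Ly96, which encodes the TLR4 partner MD-2, had 7.51 and 8.01 CPM in knockdown and 7.72 and 7.03 CPM in control libraries. Tlr4 had 4.06 CPM in knockdown replicate 1 and 32.5 CPM in knockdown replicate 2, against 30.9 and 32.6 CPM in the control libraries. The low value was thus that of 1 library, and leaving out the other knockdown library made edgeR call Tlr4 lower. Between the knockdown libraries Saa3, Hp, Lcn2 and Lbp differed at most 1.13-fold and Lyz2 differed 1.22-fold, with its lower value in the library low in Tlr4. Whether the Tlr4 level bears on these genes was not tested, and the knockdown libraries also differed in traces of other cell types.

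Of 36 regulators of acute phase transcription 32 were tested by edgeR, 1 fell and 0 rose, with a median log2 fold change of -0.02. DESeq2 called 1 higher (Tnf) and 2 lower (Nfkb2 and Socs3), limma-voom called 0, and edgeR with no filter on low counts or with at least 40 counts in all libraries called Nfkb2 besides Socs3. The one that fell was Socs3, the feedback inhibitor of IL-6 signalling through STAT3, with 43.2 and 45.6 CPM in knockdown and 65.4 and 65.2 CPM in control libraries (-0.56 ± 0.08, adjusted p = 0.0451 by edgeR). It did not pass in any of the 4 fits that left out a library (adjusted p = 0.131 to 0.219). Cebpb, the acute phase activator C/EBP beta, had 196 and 147 CPM in knockdown and 208 and 224 CPM in control libraries (-0.33 ± 0.14, adjusted p = 0.392). Nfkbia, the NF-kB inhibitor, had 162 and 148 CPM in knockdown and 144 and 149 CPM in control libraries, with overlapping groups. Across the 4 lists edgeR called 3 of 77 tested genes, all lower, against 150 of 15733 over all. DESeq2 called 13 of the 77, against 801 of 15733 over all, and of the 13 Mt2, Lrp1 and Tnf were higher in knockdown. The 4 lists were chosen with earlier results of these data known, so nothing is read from these counts. The 2 most abundant of each list that did not pass are given above.

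**Figure D4:**
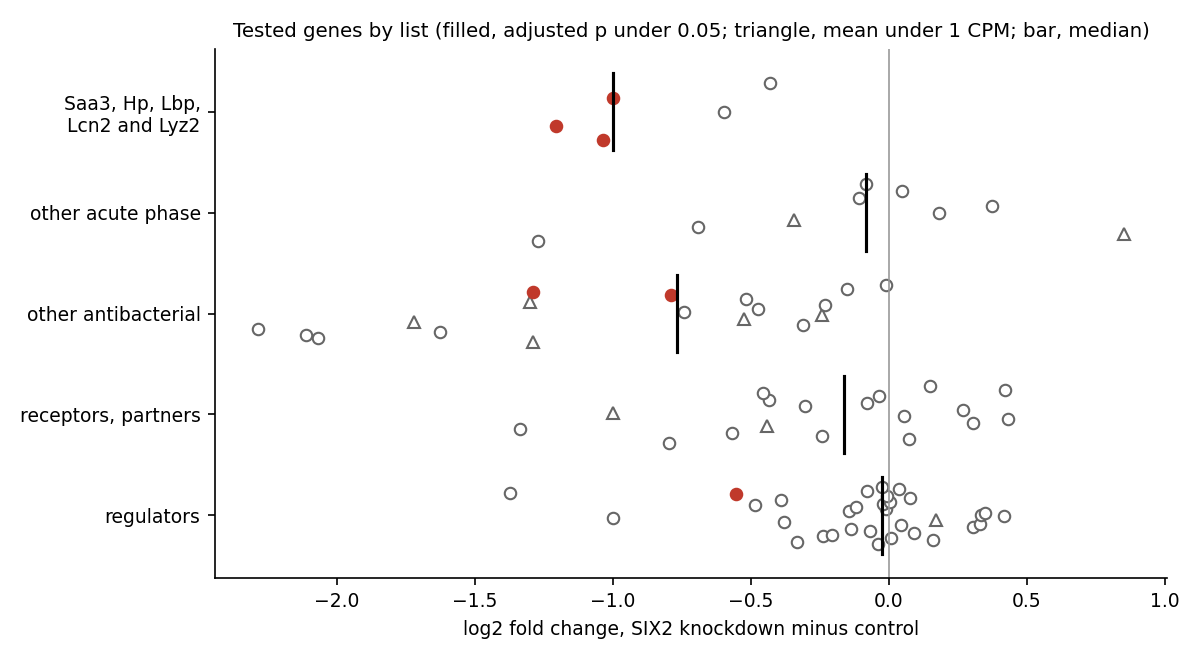
Log2 fold change (SIX2 knockdown minus control) of the 5 tested genes and of the tested genes of the 4 related lists; filled points passed an adjusted p of 0.05, triangles have a mean under 1 CPM, and bars are medians. The antibacterial list lies wholly below 0 with its median at -0.77, while the medians of the other related lists lie between -0.16 and -0.02.

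The genes were also compared by profile, which takes in the fold between the groups as well as differences between replicates. Saa3 and Lyz2 had the nearest profiles among the tested 5. The root-mean-square distance between their log2 CPM over the 4 libraries, each centred on its mean, was 0.09. Hp and Lbp were the farthest, at 0.39, and had the largest and the smallest log2 fold change of the 5 (-1.21 and -0.43). Among 9405 other genes with an official symbol and at least 5 CPM, the nearest to Saa3 were Pkig (0.04) and Tti1 (0.05), to Hp Kctd12 (0.05) and Syt7 (0.06), to Lcn2 Cd36 (0.03) and Tmem87b (0.03), to Lyz2 Aif1 (0.05) and Cmpk2 (0.06), and to Lbp Itgb2 (0.005) and Zfpm1 (0.01). Kctd12 had 80.6 and 79.6 CPM in knockdown and 197.0 and 197.3 CPM in control libraries, with close replicates in both groups, like Hp. With 4 libraries many genes lie near by. Of the 9405, 317 were within 0.1 of Lbp and 79 of Lcn2, the genes of smallest fold, against 4 for Hp and 7 each for Saa3 and Lyz2.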

How the data were processed

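RNA sequencing of 4 BV-2 libraries was analysed, 2 with SIX2 knockdown and 2 control, grouped by the labels. The deposited values were estimated counts, whole and not normalised, for 55401 Ensembl genes, and FPKM, scaled by the authors to length and library total per the file headers, for 24473. The submitters' processing notes name Bowtie 0.12.2 and build mm8. No source used here names the counting program. Coordinates equalled GENCODE M21 (GRCm38) for 86.4% of 24422 genes, Lcn2 and Lbp not among them. Another 12 columns that match no labelled sample were not used. Of values from 1 to 20, 42.1% to 47.2% were multiples of 4.

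The test was that of edgeR 4.0.16 under R 4.3.3, with filterByExpr, TMM scaling, robust quasi-likelihood fit, two-sided F test, Benjamini-Hochberg adjusted p under 0.05. The fit was also run on simulated counts, and nothing is read from that run on how reliably folds of the size seen here are called. No covariate was used. Replicates of a group differed beyond counting error (chi-square per degree of freedom 16.9 in knockdown and 16.2 in control libraries, in fragments). Alternatives were DESeq2 1.42.0, limma 3.58.1 (voom, and log2 FPKM with 1 or 0.1 added), other scaling and filters, no robust option, counts divided by 4, a replicate block, each library left out, and Lyz1 and Lyz2 summed. The genes and lists were chosen with earlier results of these data known. Named from each list were genes past the threshold (at most 5) and the 2 of highest FPKM that did not pass, and, per tested gene, the 2 of nearest profile. Cp, Saa1, Saa2, Saa4, Serpina1b, Mpeg1, Rnase4, S100a8, Ngp, S100a9, Tnf, Nfkb2, Slpi, Lrp1, Itgb2, Cd14, Ly96, Tlr4 and the markers named were chosen after their values were seen. Irg1 was counted as Acod1, and of 2 Ddit3 gene IDs the one with more counts was kept. Sequences are from RefSeq; Lbp and Hp are named only.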

Additional observations from a re-analysis of the deposited data

How the results depend on the processing

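Every fold change of the 5 tested genes stayed below 0 in the 15 other fits, and the order of levels was kept with CPM per kilobase of the GENCODE M21 exon union or longest transcript, both chosen after seeing the data. Calls varied. With DESeq2 801 of 15733 genes were called, 13 of them related genes. With no filter on low counts the numbers were 297 of 22759 and 6, and with at least 40 counts in all libraries 187 of 11928 and 5. Each of these 3 fits also called Lcn2, and so 4 listed genes. Without the robust option 7 genes were called over all, with limma-voom 65, and with limma on log2(FPKM + 1) or log2(FPKM + 0.1) 3 each; without the robust option and with both FPKM settings 0 listed and 0 related genes were called, and the cause was not tested. The labels do not say whether libraries of equal number were paired. The replicate differences of the 2 groups had a correlation of 0.0486 over 15733 genes. A value near 0 cannot show that the libraries were not paired. With the replicate block, which leaves 1 fewer degree of freedom, 0 genes were called over all, 0 of the listed and 0 of the related genes, against 2055 genes at an unadjusted p under 0.05. Leaving out 1 library at a time, with the lone library of a group assumed to vary like the others, gave 41 to 112 genes over all, 1 to 2 listed genes and 0 to 4 related genes, and a median log2 fold change of the 5 genes from -1.09 to -0.87. A recomputation of FPKM from deposited lengths was not run, as the tables used hold no length column. Depth limits only Lyz1, at 0 to 16 counts.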
